A study of Homo sapiens with 6 samples.

Results

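The genes described here encode 10 enzymes that make serine, glycine and folate-bound carbon units, asparagine and proline: PHGDH, PSAT1, PSPH, SHMT2, MTHFD2, MTHFD1L, ALDH1L2, ASNS, PYCR1 and ALDH18A1. They were chosen by gene symbol, and all 10 were found among the 38557 symbols of the deposited count and TPM tables. TPM is a level scaled to library size and corrected for transcript length, and CPM is a read count scaled to library size only. The cells were T-24, an established line of epithelial cells derived from a cancer of the human bladder. The treated arm received CCT068127, known as an inhibitor of the kinases CDK2 and CDK9, at 1 µM for 48 h (3 libraries, CCT068127 replicates 1 to 3). Control cells received the vehicle DMSO for the same 48 h (3 libraries, DMSO replicates 1 to 3, genotype given as WT). The labels call the replicates independent biological replicates, all of a single line, and the comparison asks which transcripts differed between the arms.

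Serine is made from a glycolytic intermediate in 3 steps by PHGDH, PSAT1 and PSPH. In mitochondria SHMT2 splits serine into glycine and a carbon unit that tetrahydrofolate carries, and MTHFD2, MTHFD1L and ALDH1L2 oxidise or release that unit, which the cytosol uses for purines and thymidylate. ASNS makes asparagine from aspartate and glutamine, and ALDH18A1 and PYCR1 catalyse the first and last steps from glutamate to proline. Many of these genes are known targets of ATF4, the transcription factor that is translated when eIF2 alpha is phosphorylated, and they are often highly expressed in cancer cells.

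Total counts per library were very uneven, at 371044040 and 411097626 in DMSO replicates 1 and 2 and between 1966742 and 5955296 in the other 4 libraries. The members that passed the test below had at least 26 counts in every library. Relative levels depended on the scaling: the median log2 fold change over the 13597 genes tested with edgeR was -0.05 with TMM scaling and -0.36 when library totals set the scale, and over the genes kept on log2(TPM + 1) values it was -0.46. Fold changes and adjusted p-values below are from edgeR's quasi-likelihood test with TMM scaling and Benjamini-Hochberg adjustment over all 13597 genes. The epithelial keratin genes KRT7, KRT8 and KRT19 had mean TPM of 1848, 853 and 225 in DMSO and 2414, 2101 and 326 in CCT068127, and edgeR called them higher (1.84-fold, 3.45-fold and 2.03-fold in CPM). KRT18 was also called higher (1.35-fold in CPM), but its libraries overlapped and its mean TPM was 1148 in DMSO and 1100 in CCT068127. By contrast the epithelial genes EPCAM and CDH1 had group means of at most 5.05 and 0.117 TPM. The 5 uroplakin genes, markers of differentiated urothelium, had at most 1.83 TPM in any library, and KRT20 at most 0.02. GATA3, a urothelial transcription factor and the other gene of that marker list, fell 4.54-fold in CPM (edgeR adjusted p = 5.67e-07), with mean TPM of 91.5 ± 11.7 in DMSO and 13.9 ± 2.08 in CCT068127. Of 4 leukocyte markers PTPRC and CD3E had at most 0.52 TPM, but the sum over the 4 was 7.70 ± 2.05 TPM in DMSO and 46.1 ± 1.29 in CCT068127 (SD, n = 3), mostly CD68 with means of 7.24 and 42.1 TPM. Of 6 endothelial and fibroblast markers DCN and LUM were listed at 0 TPM in every library, and the sum was 15.2 to 19.4 TPM in DMSO and 3.64 to 6.73 in CCT068127. The part of these markers in the results below was not tested.

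Under CCT068127 the serine, mitochondrial folate, asparagine and proline genes were lower, with the exceptions of MTHFD1L, ALDH18A1 and the barely detected ALDH1L2. Of the 9 members that passed the filter on low counts, 7 fell and the other 2 did not pass the test. Over all tested genes 32.8% were called lower and 31.9% higher, 64.7% in either direction. A fall of at least 2-fold was called for 6 members, against 12.9% of all tested genes. The log2 fold changes ran from -3.19 for ASNS to 0.17 for ALDH18A1, with a median of -1.28 against -0.05 over all tested genes. For 7 members every CCT068127 library lay below every DMSO library in CPM, as for 36.1% of tested genes. In these bulk samples fewer cells expressing a gene and less RNA per cell cannot be told apart.

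**Figure D1:**
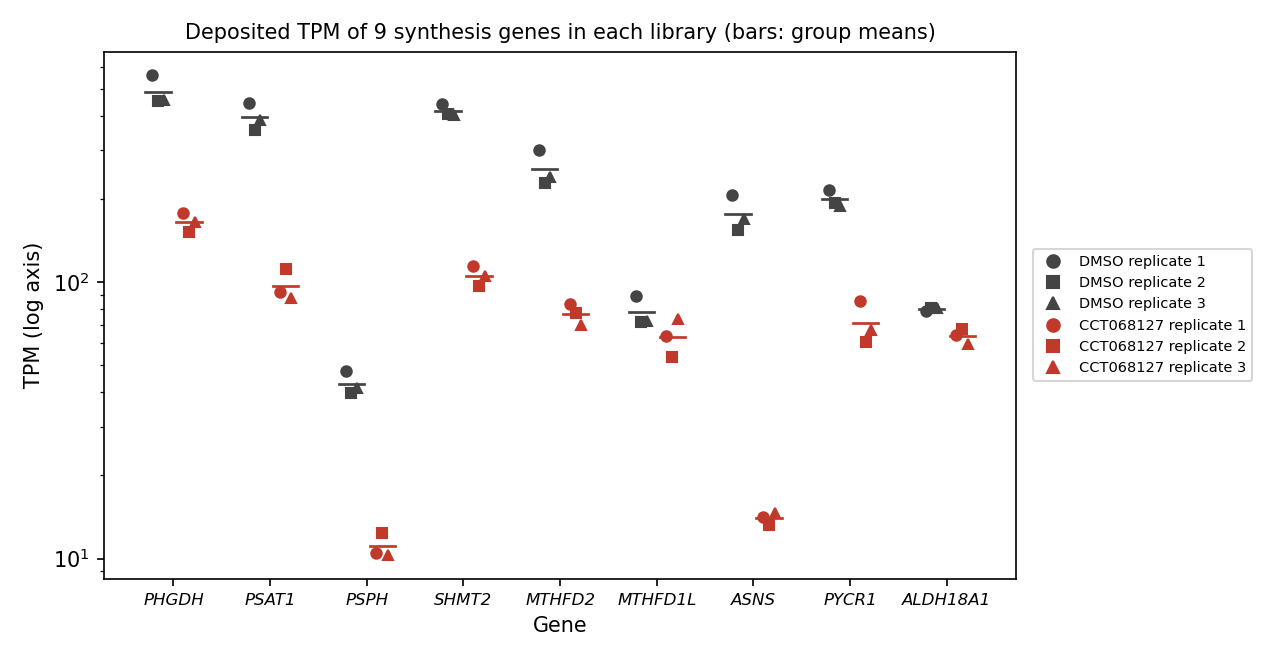
Deposited TPM (log axis) of the 9 tested genes in each library, with DMSO in grey, CCT068127 in red, symbols for replicates and horizontal bars for group means. The groups are apart for every gene except MTHFD1L, and the gap is widest for ASNS; ALDH1L2, at most 0.16 TPM, is not drawn.

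The genes of serine synthesis fell together. PHGDH (chromosome 1, 119648411 to 119744226, GRCh38), the dehydrogenase that commits 3-phosphoglycerate to serine, had 558, 451 and 455 TPM in DMSO replicates 1 to 3 and 178, 152 and 164 TPM in CCT068127 replicates 1 to 3. The lowest DMSO library was therefore well above the highest CCT068127 library. In CPM the mean went from 418 ± 49.9 to 200 ± 19.7 (SD, n = 3), which is 2.08-fold lower or -1.06 ± 0.12 (SE) on the log2 scale, with an edgeR adjusted p of 2.09e-05. PHGDH kept the highest TPM of the 10 genes in all 6 libraries.

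PSAT1 (chromosome 9, 78297143 to 78330093), the aminotransferase of the middle step, had 443, 354 and 386 TPM in DMSO and 91.8, 111 and 87.5 TPM in CCT068127. It fell 2.93-fold, with -1.55 ± 0.12 on the log2 scale and an edgeR adjusted p of 1.53e-06. PSPH (chromosome 7, 56011051 to 56051604), the phosphatase that releases serine, had 47.5, 39.6 and 41.2 TPM in DMSO and 10.5, 12.4 and 10.3 TPM in CCT068127, again with no overlap. Its log2 fold change was also -1.55, with an SE of 0.13 (edgeR adjusted p = 2.1e-06). PSPH had the fewest reads of the genes that fell, with 73, 26 and 62 counts in the CCT068127 libraries.

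The proportion between PSPH and PSAT1 was nearly the same in every library. Within a library PSPH stood at 0.107 to 0.112 times the TPM of PSAT1 in DMSO and at 0.111 to 0.118 times in CCT068127. The ratio of PHGDH to PSAT1 was 1.26, 1.27 and 1.18 in DMSO and 1.94, 1.37 and 1.88 in CCT068127, so PHGDH lost less than PSAT1 in each treated library, least clearly in CCT068127 replicate 2. These pairs were chosen after their values had been seen and carry no test.

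The mitochondrial folate route divided at its last steps. SHMT2 (chromosome 12, 57229327 to 57234935), which cleaves serine to glycine, had 440, 405 and 403 TPM in DMSO and 114, 96.6 and 105 TPM in CCT068127. Its mean CPM was 406 ± 18.6 without and 144 ± 13.5 with the compound, a 2.80-fold fall (log2 -1.49 ± 0.10, edgeR adjusted p = 6.88e-07). SHMT2 is overlapped on the other strand by NDUFA4L2, which had at most 5.54 TPM, and since the strand setting of the counting is not given, reads of such partners cannot be told apart. Listed genes also overlap MTHFD2 (SLC4A5, at most 0.75 TPM), PYCR1 (MYADML2, at most 0.73) and ALDH1L2 (C12orf45, 0.91 to 1.98).

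MTHFD2 (chromosome 2, 74198562 to 74217565), the dehydrogenase and cyclohydrolase that oxidises the methylene unit to formyl-tetrahydrofolate, had 301, 228 and 241 TPM in DMSO and 83.4, 77.3 and 70.0 TPM in CCT068127. It fell by 1.28 ± 0.12 on the log2 scale (edgeR adjusted p = 6.79e-06). The pseudogene MTHFD2P1, listed on its own, had at most 36 counts in any library beside 204 to 137935 for MTHFD2, so few reads were assigned to that copy.

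MTHFD1L (chromosome 6, 150865549 to 151101887), the synthetase that releases formate for export to the cytosol, had 89.4, 71.5 and 72.1 TPM in DMSO and 63.6, 53.5 and 73.5 TPM in CCT068127. CCT068127 replicate 3 lay inside the DMSO range. The log2 fold change was -0.16 ± 0.12 and did not pass (edgeR adjusted p = 0.27). It was called lower when library totals set the scale (-0.47, edgeR adjusted p = 0.00537), and without a low-count filter (-0.40, adjusted p = 0.0196). MTHFD1L stood at 0.297 to 0.314 times the TPM of MTHFD2 in DMSO and at 0.763, 0.692 and 1.05 times in CCT068127, a pair chosen after the values were seen.

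ALDH1L2 (chromosome 12, 105019784 to 105084577), which oxidises formyl-tetrahydrofolate to carbon dioxide in mitochondria, was close to undetected. It had 230, 170 and 1 counts in DMSO and 2, 1 and 0 counts in CCT068127, or 0 to 0.16 TPM, and did not pass the filter on low counts. The 3 counts that a library at 0 allows corresponded to 0.707 CPM in CCT068127 replicate 3, more than the DMSO mean of 0.360 CPM, so a difference was not detectable at this depth. Floors of this kind cover counting error only.

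ASNS (chromosome 7, 97852118 to 97872542), asparagine synthetase, had the lowest fold change of the members. It had 206, 154 and 168 TPM in DMSO and 14.1, 13.2 and 14.6 TPM in CCT068127, so the treated libraries differed by little among themselves and lay far below every control. This was a 9.13-fold fall (log2 -3.19 ± 0.15, edgeR adjusted p = 7.35e-08), and 88 of the 13597 tested genes, 0.647%, had a lower value. By the same count PSAT1, PSPH and SHMT2 had 5.37%, 5.41% and 5.94% of tested genes below them, MTHFD2 8.37%, PHGDH 12.0% and PYCR1 13.9%. MTHFD1L and ALDH18A1 stood nearer the middle, ALDH18A1 at 59.9%. The pseudogene ASNSP1 had 45, 57 and 0 counts in DMSO and 0 in each CCT068127 library, against 29 to 84560 counts for ASNS.

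ATF4 induces ASNS through a composite C/EBP-ATF site near its start, as textbook background. RefSeq promoter windows (250 bases before to 50 after a start, GRCh38.p14) were matched for 6 of the 10 members: PHGDH, PSAT1, MTHFD2, MTHFD1L, ASNS and ALDH18A1. They were searched on both strands for TGATGNAA (the core of the C/EBP-ATF site), CACGTG (the E-box) and TGACNNNGC (the antioxidant response element). The matches are shown because ASNS, with the lowest fold change, and MTHFD1L, which did not pass, both hold the C/EBP-ATF letters. The E-box matches of MTHFD1L and ALDH18A1 are set beside them. Capitals mark the match, and each runs 5′ to 3′ on the strand of the gene.
ASNS, C/EBP-ATF letters, chr7:97872458-97872487, minus strand: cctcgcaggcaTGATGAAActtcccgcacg
MTHFD1L, C/EBP-ATF letters, chr6:150866346-150866375, plus strand: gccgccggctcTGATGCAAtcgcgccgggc
MTHFD1L, E-box, chr6:150866321-150866348, plus strand: acgcccggctcCACGTGcgcagccggcc
ALDH18A1, E-box, chr10:95656831-95656858, minus strand: ggctggcccgcCACGTGgagcgctggct

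The ASNS match began 68 bases before a RefSeq start, and in GENCODE 29 it falls inside an annotated ASNS exon. The MTHFD1L match was 129 or 90 bases before, or 24 bases after, a start, depending on which of its RefSeq starts is used, and it falls inside a GENCODE exon. TGATGNAA was in windows of 2 of 6 members and of 4.46% of 27305 genes in the table. The longer TGATGNAAT was in 1 of 6 (MTHFD1L) and in 1.22% of genes. CACGTG was in 2 of 6 members and in 8.77% of genes, and TGACNNNGC in 1 of 6 (MTHFD2) and in 16.1% of genes. A match is a string of letters and not a measured site, and these windows do not cover introns or distant elements.

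Of the proline genes PYCR1 fell and ALDH18A1 had no stable call. PYCR1 (chromosome 17, 81932384 to 81942412), the mitochondrial reductase of the last step, had 215, 193 and 189 TPM in DMSO and 85.1, 60.5 and 67.3 TPM in CCT068127, with no overlap. Mean CPM was 172 ± 11.6 and 86.5 ± 17.0, a 1.96-fold fall (log2 -0.97 ± 0.14, edgeR adjusted p = 0.000107). ALDH18A1 (chromosome 10, 95605929 to 95656706), the synthase that starts the route from glutamate, had 78.6, 80.3 and 80.3 TPM in DMSO and 64.6, 67.4 and 59.9 TPM in CCT068127.

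For ALDH18A1 the direction depended on the scale. In TMM-scaled CPM it was 126 ± 2.58 in DMSO and 141 ± 9.33 in CCT068127, with every treated library above every control, as for 33.3% of tested genes. That difference did not pass (log2 fold change 0.17 ± 0.10, edgeR adjusted p = 0.142). With DESeq2 it passed as higher (0.20, adjusted p = 0.0308), whereas limma on log2(TPM + 1) called it lower (-0.32, adjusted p = 0.0112). Relative to PYCR1, whose ratio to it needs no scaling between libraries, ALDH18A1 stood at 0.366, 0.415 and 0.425 times the PYCR1 TPM in DMSO and at 0.758, 1.11 and 0.890 times in CCT068127, a pair chosen after the values were seen.

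In the order of levels per length ASNS, which stood sixth of the 10 by mean TPM in DMSO, came after ALDH18A1 and MTHFD1L in CCT068127. In DMSO the mean TPM ran from PHGDH (488 ± 60.9) through SHMT2 (416 ± 20.9), PSAT1 (394 ± 45.1), MTHFD2 (257 ± 39.2), PYCR1 (199 ± 13.9), ASNS (176 ± 26.5), ALDH18A1 (79.7 ± 0.973), MTHFD1L (77.6 ± 10.2) and PSPH (42.8 ± 4.18) to ALDH1L2. The neighbours SHMT2 and PSAT1, PYCR1 and ASNS, and ALDH18A1 and MTHFD1L overlapped between libraries. In CCT068127 the first 4 kept their order (165 ± 13.0, 105 ± 8.78, 96.9 ± 12.6 and 76.9 ± 6.67 TPM), with SHMT2 and PSAT1 again overlapping. MTHFD2, PYCR1 (71.0 ± 12.7 TPM), ALDH18A1 (64.0 ± 3.79) and MTHFD1L (53.5 to 73.5) then overlapped from neighbour to neighbour, and ASNS (14.0 ± 0.717) and PSPH (11.1 ± 1.14) followed below them.

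The summed TPM of the 10 genes was 2379, 1977 and 2036 in DMSO and 705, 644 and 653 in CCT068127. ASNS made up 8.25% ± 0.419 of that sum in DMSO and 2.10% ± 0.125 in CCT068127. The share of MTHFD1L went from 3.64% ± 0.109 to 9.52% ± 1.54 and that of ALDH18A1 from 3.77% ± 0.407 to 9.60% ± 0.749, while PHGDH took 22.9% ± 0.559 and 24.7% ± 0.922. DMSO replicate 1 had the highest DMSO TPM for 9 of the 10 genes, all but ALDH18A1. Without that library the 7 genes that fell still passed, with ASNS at -3.09 and PHGDH at -0.98.

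Enzymes of the same families that act in the other compartment, or as another isoform, did not follow the members as a group. Beside 32.8% lower and 31.9% higher over all tested genes, 1 of 5 such counterparts fell, 1 rose and 3 did not pass. Their median was 0.09 on the log2 scale, -0.07 without CCT068127 replicate 2 and -0.06 without CCT068127 replicate 3. On filtered log2(TPM + 1) values 2 fell, none being called higher, and the median was -0.49. On those values 51.9% of all 14394 genes were called lower, and 2474 genes higher. SHMT1, the cytosolic partner of SHMT2, had 68.9, 54.1 and 59.0 TPM in DMSO and 54.1, 41.0 and 49.4 TPM in CCT068127, with overlapping groups. Its log2 value of 0.18 ± 0.13 was not called (edgeR adjusted p = 0.255) and was -0.33 on TPM values. MTHFD1, the cytosolic enzyme that carries out the reactions of MTHFD2 and MTHFD1L, had 91.1, 76.7 and 71.9 TPM in DMSO and 96.4, 111 and 87.5 TPM in CCT068127. It rose by 0.78 ± 0.12 (edgeR adjusted p = 0.000278), a call not made on log2(TPM + 1) values (0.30, adjusted p = 0.0692).

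PYCR3, a cytosolic relative of PYCR1, stood at -0.24 ± 0.20 with no call (edgeR adjusted p = 0.312). It passed as lower with scaling by library totals (-0.55, edgeR adjusted p = 0.0312), without a low-count filter (-0.50) and on filtered TPM values (-0.83). Every CCT068127 library lay below every DMSO library in CPM, as for 36.1% of tested genes. CCT068127 replicates 1 and 3, at 20.1 and 19.6 CPM, were close to the DMSO mean of 20.6, and replicate 2 had 8.53. MTHFD2L, a second mitochondrial dehydrogenase close to MTHFD2, had 11.6, 11.1 and 11.8 TPM in DMSO and 5.30, 10.4 and 8.80 TPM in CCT068127 and did not pass (0.09 ± 0.23, adjusted p = 0.755), with a sign that changed under other scalings. ALDH1L1, the cytosolic relative of ALDH1L2, fell from 5.58 ± 0.843 to 2.07 ± 0.228 CPM (-1.41 ± 0.27, edgeR adjusted p = 0.00105).

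**Figure D2:**
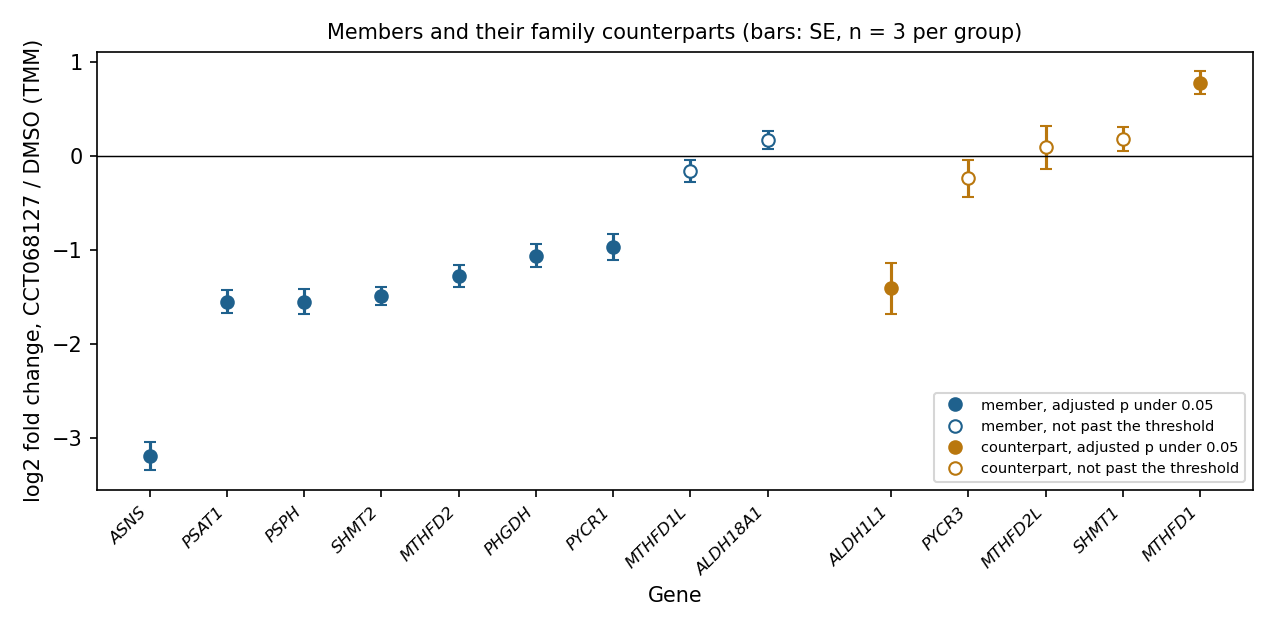
The log2 fold change (CCT068127 over DMSO, TMM scaling) of the 9 tested members in blue and 5 counterparts in orange, with bars for SE (n = 3 per group) and open symbols for genes that did not pass. The 7 filled members lie between -3.19 and -0.97, and the counterparts range from -1.41 (ALDH1L1) to 0.78 (MTHFD1).

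Ratios taken within a library do not depend on how libraries are scaled to each other. SHMT2 stood at 6.39, 7.50 and 6.83 times the TPM of SHMT1 in DMSO and at 2.11, 2.36 and 2.13 times in CCT068127, a difference of -1.65 in log2 ratio (two-sided exact permutation p = 0.1, n = 3 per group). MTHFD2 stood at 3.31, 2.97 and 3.35 times MTHFD1 in DMSO and at 0.865, 0.695 and 0.801 times in CCT068127, a difference of -2.03 (exact permutation p = 0.1). The mitochondrial enzyme was thus the more abundant transcript of that pair in every DMSO library and the less abundant in every CCT068127 library. On the other strand SMCR8 (5.44 to 11.65 TPM) overlaps SHMT1 and ZBTB25 (7.96 to 12.76 TPM) overlaps MTHFD1. Their reads cannot be told apart without the strand setting.

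ASNS stood at 1.50, 1.26 and 1.35 times GOT2, the mitochondrial aminotransferase that makes aspartate, in DMSO and at 0.0948, 0.0904 and 0.108 times in CCT068127 (difference -3.81, exact permutation p = 0.1). GOT2 itself was called higher with TMM scaling (log2 0.65 ± 0.10, edgeR adjusted p = 0.000185), so this difference is not that of ASNS alone. In each of these 3 pairs the groups did not overlap, and 0.1 is the smallest p that 3 against 3 allows, so none could pass 0.05. Adjusted over the 3 pairs the value stays at 0.1.

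**Figure D3:**
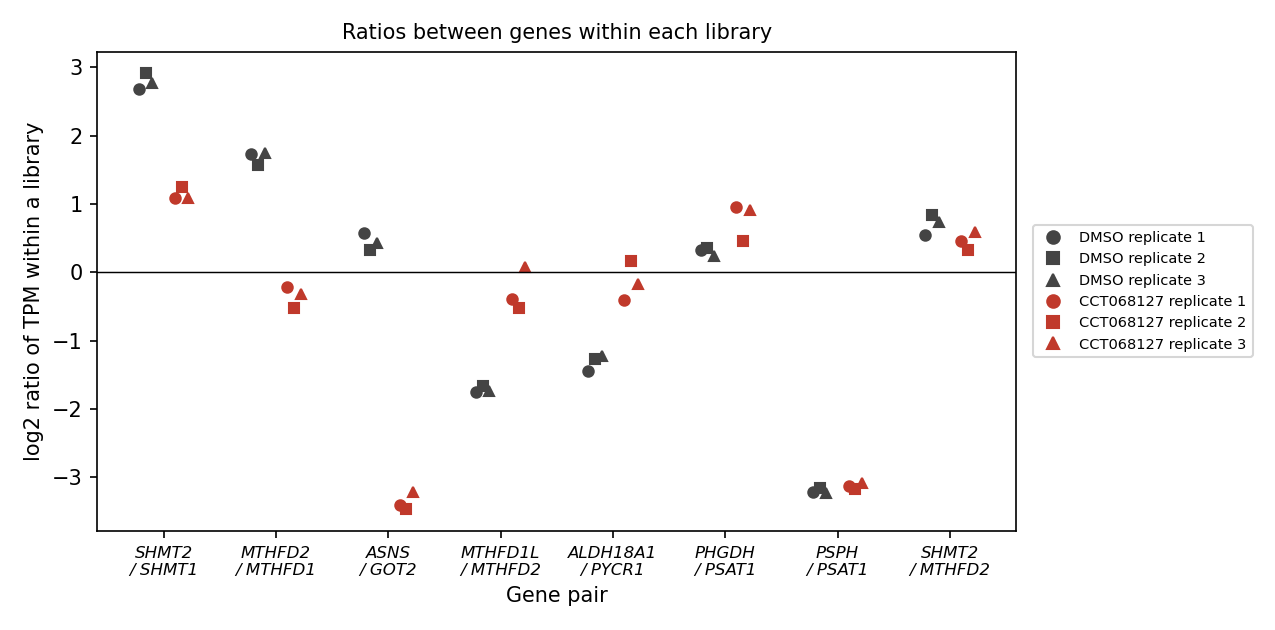
The log2 ratio of TPM between genes of a pair within each library, with DMSO in grey, CCT068127 in red and symbols for replicates. The 3 pairs on the left are those with a permutation test; MTHFD2 to MTHFD1 lies above 0 in DMSO and below 0 in CCT068127, whereas PSPH to PSAT1 lies between -3.23 and -3.08 in all 6 libraries.

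The rest of the folate and glycine genes moved in both directions. Of 18 listed 15 were tested, of which 5 fell and 6 rose, beside 32.8% lower and 31.9% higher over all tested genes. The list's median was 0.06, and -0.39 on TPM values. TYMS, which makes thymidylate with a folate-bound carbon unit, rose from 32.7 ± 11.2 to 411 ± 15.3 CPM (log2 3.63 ± 0.21, edgeR adjusted p = 4.77e-07), and GGH, which removes glutamate from stored folates, rose by 3.52. MTHFS, which returns 5-formyl-tetrahydrofolate to the pool, fell by 0.95 on the log2 scale. Without CCT068127 replicate 1 the median of this list was -0.06.

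Purine synthesis takes up formyl units. Of its 13 genes 2 rose and 5 fell (median -0.05), beside 31.9% higher and 32.8% lower over all tested genes. PAICS, a bifunctional enzyme of the route, rose by 1.49, while ADSL, which acts in the next step, fell by 0.88 and IMPDH2, the rate-limiting enzyme of guanine nucleotide synthesis, by 0.77 on the log2 scale. Only 3 of these genes fell without DMSO replicate 2, where 27.7% of all genes were called lower. On filtered log2(TPM + 1) values 9 fell, where that share was 51.9%. All 6 single-library omissions left the list median between -0.14 and 0.01.

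In the methionine cycle and transsulfuration 10 of 12 genes were tested. Of these 4 fell and 2 rose (median -0.05), beside 32.8% lower and 31.9% higher over all tested genes. MAT2A, which makes S-adenosylmethionine, fell from 314 ± 27.1 to 98.0 ± 15.1 CPM (log2 fold change -1.69). CBS, which joins serine to homocysteine, fell by 2.74 on the log2 scale. CBS shares its sequence with the near-identical copy CBSL, listed with 39515, 29612 and 475 counts in DMSO and 71, 37 and 36 in CCT068127, so the division of reads between them is uncertain. BHMT2, a homocysteine methyltransferase, rose by 4.46 on the log2 scale, from 80, 91 and 0 counts in DMSO to 20, 5 and 22 counts in the shallower CCT068127 libraries. That value rests on few reads and ranged from 1.70 to 7.21 over the alternatives. The 7.21 came with DMSO replicate 3, at 0 counts, as the sole control. Without DMSO replicate 3, 1 gene of this list rose, where 4122 of all 14049 genes were called higher.

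Of 18 genes that supply or remove glutamate, glutamine, aspartate and proline 12 were tested. Beside 32.8% lower and 31.9% higher over all tested genes, 4 of the 12 fell and 7 rose. Their median was 0.45, and on filtered log2(TPM + 1) values it was -0.09, with 4 lower and 3 higher. On those values 51.9% of all 14394 genes were called lower, and 2474 genes higher. OAT, which links ornithine to the proline route, rose by 0.94 and ASL, which cleaves argininosuccinate, by 0.92. ASS1, which uses aspartate to make argininosuccinate, had 188, 221 and 236 TPM in DMSO and 12.9, 13.8 and 16.0 TPM in CCT068127. It fell 10.5-fold (log2 -3.39 ± 0.14, edgeR adjusted p = 4.98e-08), next to the 9.13-fold of ASNS. Without CCT068127 replicate 3, 2 genes of the list fell, where 28.6% of all genes were called lower.

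Among enzymes that use serine outside the folate route 7 of 9 were tested. Beside 32.8% lower and 31.9% higher over all tested genes, 3 of the 7 rose and 4 did not pass. Their median was 0.33, and -0.11 on TPM values. PTDSS1, a phosphatidylserine synthase, rose by 1.06, and SPTLC1, a subunit of the enzyme that starts sphingolipid synthesis, by 0.85. Without CCT068127 replicate 2, 8 genes of the list were tested and 1 fell, where 34.2% of all genes were called lower. Without CCT068127 replicate 1, also with 8 tested, the median was 0.19.

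Factors known to act on the member genes moved in both directions. The 15 listed were transcription factors, eIF2 alpha kinases, phosphatase subunits and TRIB3. Of the 15, 8 fell and 3 rose, beside 32.8% lower and 31.9% higher over all tested genes. The list's median was -0.25, or -0.38 without CCT068127 replicate 2, and 6 fell without DMSO replicate 2 or without CCT068127 replicate 3. Without those libraries in turn, 27.7% and 28.6% of all genes were called lower. ATF4 had 1335, 1177 and 1206 TPM in DMSO and 277, 295 and 294 TPM in CCT068127. Its log2 fold change was -1.52 ± 0.09 (edgeR adjusted p = 2.97e-07), where the tested members ran from -3.19 (ASNS) to 0.17 (ALDH18A1). A link between ATF4 and the members was not tested. CEBPB (-1.92), CEBPG (-1.20) and DDIT3 (-1.86), C/EBP family members that can pair with ATF4, also fell. ATF3, a related stress factor, rose by 1.57.

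MYC, a factor known to drive serine and folate genes, rose by 0.68 but had 76.9, 65.6 and 68.2 TPM in DMSO and 80.5, 75.3 and 83.6 TPM in CCT068127, and was not called there (0.18, adjusted p = 0.121). NFE2L2, which encodes NRF2 and is known to act upstream of ATF4 on serine genes, rose by 0.46 and stood at -0.24 on log2(TPM + 1) values (adjusted p = 0.0799). Transcript levels do not measure the protein or its activity.

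**Figure D4:**
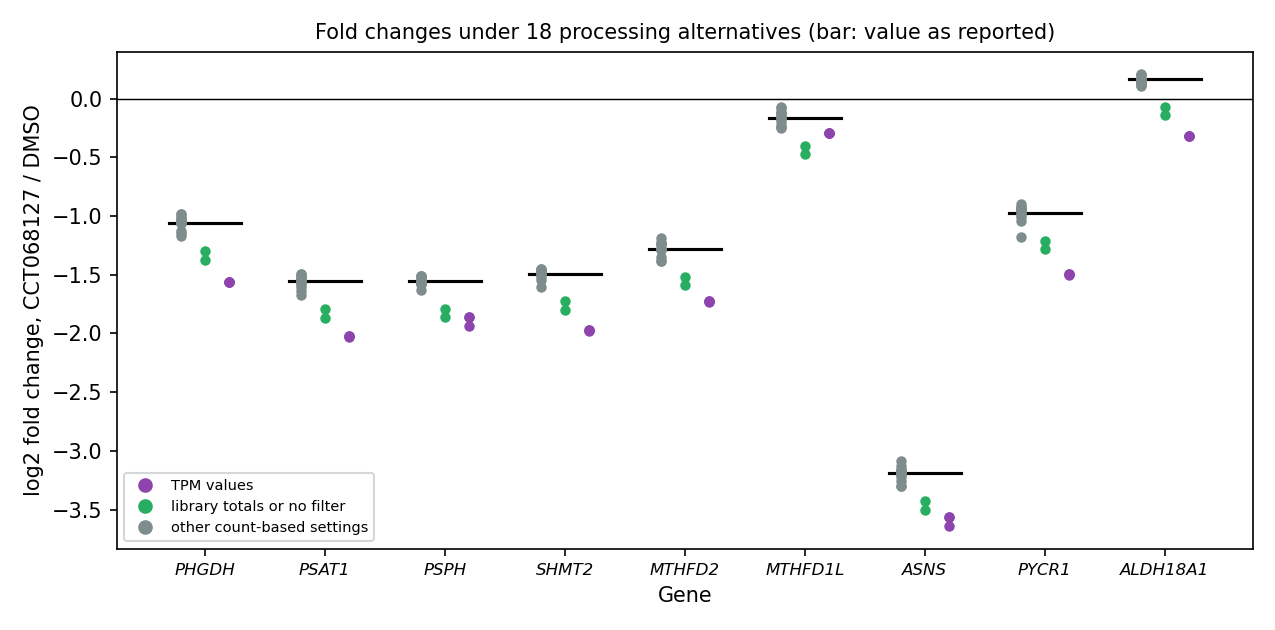
The log2 fold change of each tested member under 18 processing alternatives, with a black bar for the value as reported and points coloured by kind of alternative. The 7 members that fell stay below 0 at every point, from -0.90 (PYCR1) to -3.64 (ASNS), and ALDH18A1 lies on both sides of 0, from -0.32 to 0.21.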

How the data were processed

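Poly(A) RNA was sequenced on a NovaSeq from 6 cultures, per the labels' protocols. The authors deposited estimated counts per symbol, rounded to whole numbers, and TPM. The submitters' processing notes name RSEM, Bowtie and hg38. Strandedness and annotation are not given in the sources used here. Depth ran from 1966742 to 411097626 counts per library, and the shallow libraries set the precision.

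The test was edgeR 4.0.16 under R 4.3.3, with filterByExpr (minimum count 10), TMM scaling and a robust quasi-likelihood fit of treatment (two-sided), with calls at an adjusted p under 0.05. An SE is the absolute log2 fold change over the square root of F. CPM used TMM-scaled totals. Limma 3.58.1 was run on log2(TPM + pseudocount), which understates changes of low genes, and DESeq2 1.42.0 on the counts. Other alternatives were scalings, filters, limma-voom, a replicate block, thinning of the deep libraries and leaving out each library. The pipeline was tested on simulated data with few genes changed, evenly in both directions, so that run could not judge the choice of scaling. With DMSO replicates 1 and 2 thinned to the depth of DMSO replicate 3, no replicate pair agreed within sampling noise. The chi-square per degree of freedom was 1.96 to 9.26, so each library counted as 1 replicate. Libraries with the same replicate number showed no sign of pairing (correlations of deviations of 0.00999, 0.00471 and 0.0095). Counting noise in the shallow libraries also lowers such correlations, so they cannot exclude pairing.

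Members and lists were chosen with earlier results of these data known. Named genes were all members and counterparts, ATF4, DDIT3, CEBPG, NFE2L2 and MYC, and from each remaining list, regulators included, the called genes with the smallest adjusted p, 2 in the direction with more calls and 1 opposite. Gene positions are from GENCODE 29 (GRCh38). Some listed genes, and 1 ratio, are not reported here.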

Additional observations from a re-analysis of the deposited data

How the results depend on the processing

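The 7 members that fell passed as lower in all 17 alternatives that give a test, and the number lower ranged from 7 to 8. The share of all genes called lower also moved, from 21.6% without a low-count filter to 51.9% on filtered log2(TPM + 1) values. It was 48.3% when library totals set the scale. The number of members that rose was 1 with DESeq2 (ALDH18A1), and none rose in the other alternatives. The members' median of -1.28 became -1.59 when library totals set the scale, -1.72 and -1.73 on filtered TPM values with a pseudocount of 1 and 0.1, and -1.64 on log2(TPM + 1) without a filter. Leaving out 1 library gave medians from -1.38 to -1.19. The 3 within-library ratios with a permutation test kept the sign of their difference in all 9 alternatives run on them, and the other ratios were not rerun. With the replicate number as a block 7 members fell and 0 rose, as reported, and the members' median was -1.28. Over all genes the block gave 4190 lower and 4107 higher, and 3 purine genes lower. Pairing by number was not seen in the correlations of deviations, which cannot exclude it. DMSO replicate 1 correlated best with CCT068127 replicate 2, but only at 0.0156, and all such correlations lay between -0.0331 and 0.024.

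MTHFD1L and PYCR3, which did not pass, stayed below 0 in every alternative, from -0.47 to -0.07 and from -0.93 to -0.07. The sign of 3 others changed. With scaling by library totals, without a low-count filter and on TPM values in turn, ALDH18A1 stood at -0.14, -0.07 and -0.32, SHMT1 at -0.13, -0.06 and -0.33, and MTHFD2L at -0.22, -0.16 and -0.49 (-0.55 with a pseudocount of 0.1). MTHFD2L ranged from -0.08 to 0.34 when 1 library was left out. NFE2L2, which had passed as higher, stood at -0.24 on TPM values. Counts in the other lists moved with the setting, as did the share of all genes called lower. Across alternatives the number lower was 1 to 2 for counterparts, 4 to 8 for folate and glycine, 3 to 9 for purines, 4 to 7 for methionine, 2 to 5 for the glutamate list, 0 to 1 for serine users and 6 to 10 for the regulators. The number higher was 0 to 1, 4 to 6, 1 to 3, 1 to 2, 2 to 7 and 1 to 3 in the same order, and 1 to 4 for the regulators. The causes were not tested.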
